A study of Mus musculus with 6 samples.

Results

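The immediate early and early response genes are a set of 36 genes whose transcripts are induced without new protein synthesis, or soon after. They were measured in the apex of the left ventricle of 3 PTIP KO and 3 PTIP+ mice, with 1 Affymetrix array per mouse. Members were chosen by gene name, but with earlier results of these data known. A member was counted as measured where the platform annotation ties at least 1 probe set to that gene alone. All 36 were found among 18193 genes with such probe sets, through 62 of 45037 tested probe sets. Every member is described here by its representative probe set, the one with the highest mean over the 6 arrays, and 14 members had further probe sets.

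PTIP KO mice had 1 null and 1 floxed copy of Paxip1, which encodes PTIP, together with Cre recombinase fused to a modified estrogen receptor and driven in heart muscle by the alpha myosin heavy chain promoter. In their PTIP+ littermates the floxed copy was paired with a wild-type one, and no Cre is named for these mice. All 6 were females of 8 weeks on a mixed C57B6 and B6129 background, and all received tamoxifen at 20 mg/kg. The labels place collection at 5 days after tamoxifen in some fields and describe dosing over 5 days in another, so the schedule is not settled. Because the driver is restricted to cardiomyocytes, the other cells of the apex were not targeted. The 2 groups differ in the null allele and in the induced deletion together, and these cannot be told apart, nor can an effect of Cre itself if the PTIP+ mice lacked it.

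Growth factors, stretch, adrenergic stimulation and ischaemia switch these genes on within minutes. Signals through MAP kinases reach serum response factor at the CArG boxes of their promoters, and cyclic AMP signals reach CREB at cyclic AMP response elements (CREs). The products include transcription factors of the AP-1, Egr and Nr4a families, phosphatases that switch the kinases off again, and proteins that speed mRNA decay. Most of the transcripts are short-lived, so their level in dissected tissue is known to depend on the minutes before the RNA is stabilised. No time or order of collection per mouse is used here, and the part of handling was not tested.

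The RMA values are on a log2 scale, so a difference of 1 is a factor of 2. All 3 PTIP KO mice lay below all 3 PTIP+ mice on each of the 4 Paxip1 probe sets, with differences between -1.83 and -0.95. Of those, 3 passed at a limma adjusted p between 0.0240 and 0.0377, and the remaining one did not (limma adjusted p = 0.106). The 8 cardiomyocyte markers read at least 12.5 in every mouse, near the top of the scale, and the 6 lymphocyte markers averaged between 3.74 and 4.38. The 3' minus 5' difference of the actin control probe sets, which grows with RNA breakdown, was 1.51, 1.45 and 1.64 in PTIP KO mice 1 to 3 and 1.85, 1.17 and 1.38 in PTIP+ mice 1 to 3. For Gapdh it lay between 0.90 and 0.93 in PTIP KO mice, and was 1.27, 0.66 and 0.79 in PTIP+ mice 1 to 3. PTIP+ mouse 1 was highest on both. Its array weight, an estimate of precision from the fit, was the lowest at 0.435, against 0.698 to 1.66 for the other 5 arrays.

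Promoter windows of 300 bases, 250 before and 50 after the annotated start, came from RefSeq on GRCm38.p6 and were available for 27 members in 38 windows. The letters TGACG, the core of a CRE, were found on either strand in 18 of the 38 windows, against 20.8% of 32851 windows of all genes. These 18 windows belong to 15 of the 27 members, and 3 of them are overlapping windows of Egr2 that hold the same cores. The full CRE, TGACGTCA, which also counts as a core, was in 2 (1.79% of all windows), those of Maff and Dusp1. A CArG box was searched as CC, then 6 letters that are each A or T, then GG. CArG boxes in this strict form were in 6 windows (1.63% of all). Of these, 4 were windows of Egr2, of which 3 overlap, and the others those of Dusp5 and Zfp36. An Egr site, GCGGGGGCG, was in 7 windows (2.91% of all), and neither TGACTCA nor TGAGTCA, the AP-1 site, was in any (5.2% of all). A match is a description of these letters, not of binding. The windows shown are those of Fos, Fosb and Nr4a1, which with Nr4a3 varied most between mice of a group, and of Dusp5, which had the smallest p of the representative probe sets. Capitals mark CArG boxes, CREs and their cores, and Egr sites. The windows are chr12:85473640-85473939 (plus strand) for Fos, chr7:19309996-19310295 (minus strand) for Fosb, chr15:101266596-101266895 (plus strand) for Nr4a1 and chr19:53528895-53529194 (plus strand) for Dusp5.
Fos: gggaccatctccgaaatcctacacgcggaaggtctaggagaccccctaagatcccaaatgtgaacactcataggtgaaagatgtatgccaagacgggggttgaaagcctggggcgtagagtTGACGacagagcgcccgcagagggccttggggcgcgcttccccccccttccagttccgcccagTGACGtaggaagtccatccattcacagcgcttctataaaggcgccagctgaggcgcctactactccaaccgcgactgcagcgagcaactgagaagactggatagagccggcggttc
Fosb: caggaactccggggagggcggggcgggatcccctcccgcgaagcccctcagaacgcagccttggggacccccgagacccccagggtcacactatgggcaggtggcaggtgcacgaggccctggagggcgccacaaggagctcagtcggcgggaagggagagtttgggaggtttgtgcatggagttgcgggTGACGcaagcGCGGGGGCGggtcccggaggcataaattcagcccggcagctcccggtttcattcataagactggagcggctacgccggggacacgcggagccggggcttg
Nr4a1: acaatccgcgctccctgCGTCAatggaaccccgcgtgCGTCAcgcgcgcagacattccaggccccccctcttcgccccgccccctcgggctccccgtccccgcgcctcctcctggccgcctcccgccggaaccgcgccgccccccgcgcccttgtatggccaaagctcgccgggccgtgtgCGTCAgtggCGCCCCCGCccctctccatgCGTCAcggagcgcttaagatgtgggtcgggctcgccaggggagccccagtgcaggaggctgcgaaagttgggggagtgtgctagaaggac
Dusp5: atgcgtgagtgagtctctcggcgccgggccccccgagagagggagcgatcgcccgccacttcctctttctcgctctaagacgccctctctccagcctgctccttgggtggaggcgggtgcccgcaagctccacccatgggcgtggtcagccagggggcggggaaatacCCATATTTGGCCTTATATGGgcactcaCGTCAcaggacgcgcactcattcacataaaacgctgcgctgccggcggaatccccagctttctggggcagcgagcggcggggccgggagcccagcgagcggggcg

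Fos has CRE cores beginning 129 and 66 bases before its start. In Fosb a CRE core at 60 bases is followed by an Egr site at 50 bases before the start. Nr4a1 holds 4 CRE cores, at 233, 213, 69 and 40 bases, and an Egr site at 60 bases. Of these 4 windows only that of Dusp5 holds CArG boxes in the strict form, a pair that abut at 82 and 72 bases before the start. A CRE core follows at 55 bases. Sequence outside the windows was not searched, so CArG boxes farther from the starts of Fos, Fosb and Nr4a1 would have been missed. Near matches to a CArG box were not searched inside the windows either, such as ccttgtatgg in that of Nr4a1. Egr1 had no window and was not searched.

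No early response gene differed between the PTIP KO and PTIP+ ventricles past the threshold, a limma p adjusted by Benjamini-Hochberg over all probe sets under 0.05. The count was 0 of 36, where 0.286% of all genes passed. At an unadjusted limma p under 0.05 there were 2 members, against 9.27% of all genes. These were Dusp5, a phosphatase of the kinase ERK, lower in PTIP KO (3.8% of all genes were lower at that p), and Ctgf, a matricellular protein, higher (5.47% of all genes). The groups did not overlap for Dusp5, Zfp36l1 and Ctgf, 3 of 36, against 16% of all genes (6.57% lower and 9.44% higher). A difference of at least 1 in size was seen for Fos alone of the 36, against 0.857% of all genes. Of the 36 differences 22 were negative, against 44.9% over all genes, and their median was -0.10, against 0.02. The lowest limma adjusted p among all 62 probe sets of the members was 0.166. In bulk tissue, fewer cells of a type and less RNA per cell cannot be told apart. The count of 2 became 4 without PTIP+ mouse 1, where 10.2% of all genes reached that p (11.1% of members). It became 7 without PTIP+ mouse 3, where 7.4% of all genes did (19.4% of members), and Fos, Fosb, Egr1, Egr2 and Ier2 joined Dusp5 and Ctgf. With array weights the median difference was -0.02 and 18 members were negative, against 41.7% of all genes. These weights count PTIP+ mouse 1 least, and PTIP+ mouse 3 (1.66) and PTIP KO mouse 3 (1.65) most. No member passed the adjusted threshold in any of these fits. The lowest limma adjusted p, each time for Dusp5, was 0.233 without PTIP+ mouse 1, 0.193 without PTIP+ mouse 3 and 0.119 with array weights.

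**Figure D1:**
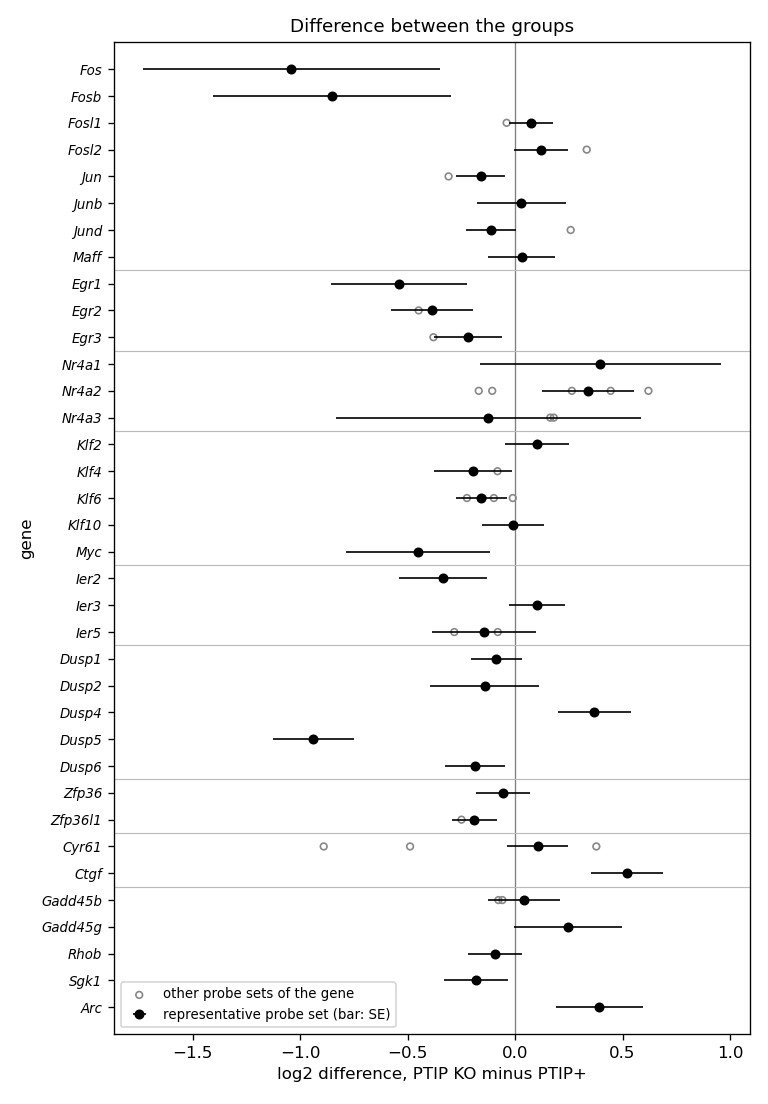
Log2 difference of each early response gene, PTIP KO minus PTIP+, by role (AP-1, Egr, Nr4a, Klf and Myc, Ier, Dusp, mRNA decay, matricellular, effectors). Filled points are representative probe sets with the standard error of the limma fit, and open points the other probe sets. The representative probe sets run from -1.04 for Fos, whose error bar is among the widest, to 0.52 for Ctgf, and an open point of Nr4a2 lies at 0.62.

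Among the AP-1 subunits, which pair to form a leucine zipper transcription factor, Fos and Fosb were the members with the widest spread. Fos, the classic immediate early gene, read 9.09, 8.95 and 7.42 in PTIP KO mice 1 to 3 and 10.43, 10.14 and 8.02 in PTIP+ mice 1 to 3. Mouse 3 was the lowest in each group, and PTIP+ mouse 3 lay below PTIP KO mice 1 and 2. The replicate numbers come from the sample titles, which do not say that same-numbered mice were matched. The difference was -1.04 (SE 0.69, limma adjusted p = 0.746), less than the range of 1.67 within the PTIP KO group or of 2.41 within the PTIP+ group. From the highest to the lowest mouse Fos spanned a factor of 8.04. Fosb, its close paralogue, read 3.60, 3.23 and 2.72 in PTIP KO mice and 5.18, 4.15 and 2.78 in PTIP+ mice, a difference of -0.85 (SE 0.55, limma adjusted p = 0.742). It was -0.28 without PTIP+ mouse 1 and -1.48 without PTIP+ mouse 3. The order of the 6 mice was the same as for Fos, although Fosb was dim, below the median of 5.19 over all probe sets.

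The other AP-1 genes varied far less. Jun, the usual partner of Fos, read 10.37, 10.54 and 10.43 in PTIP KO mice and 10.63, 10.70 and 10.47 in PTIP+ mice, a difference of -0.16 (SE 0.11, limma adjusted p = 0.774). Its second probe set differed by -0.31. Junb, a less active partner, read 5.63, 5.32 and 5.00 in PTIP KO mice and 5.57, 5.32 and 4.97 in PTIP+ mice. Both groups held nearly the same set of values for Junb, with a difference of 0.03 (SE 0.21), and again mouse 3 of each group was lowest. Jund, Fosl1, Fosl2 and Maff, a small Maf protein without an activation domain, had ranges over the 6 mice between 0.18 and 0.47 and differences between -0.11 and 0.12. The second probe sets of Jund, at 0.26, and of Fosl1, at -0.04, had the opposite sign to the representative ones. That of Fosl2 was dim and differed by 0.33 (limma adjusted p = 0.670). It read 4.12, 4.73 and 4.12 in PTIP KO mice and 3.93, 3.95 and 4.10 in PTIP+ mice, without overlap.

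**Figure D2:**
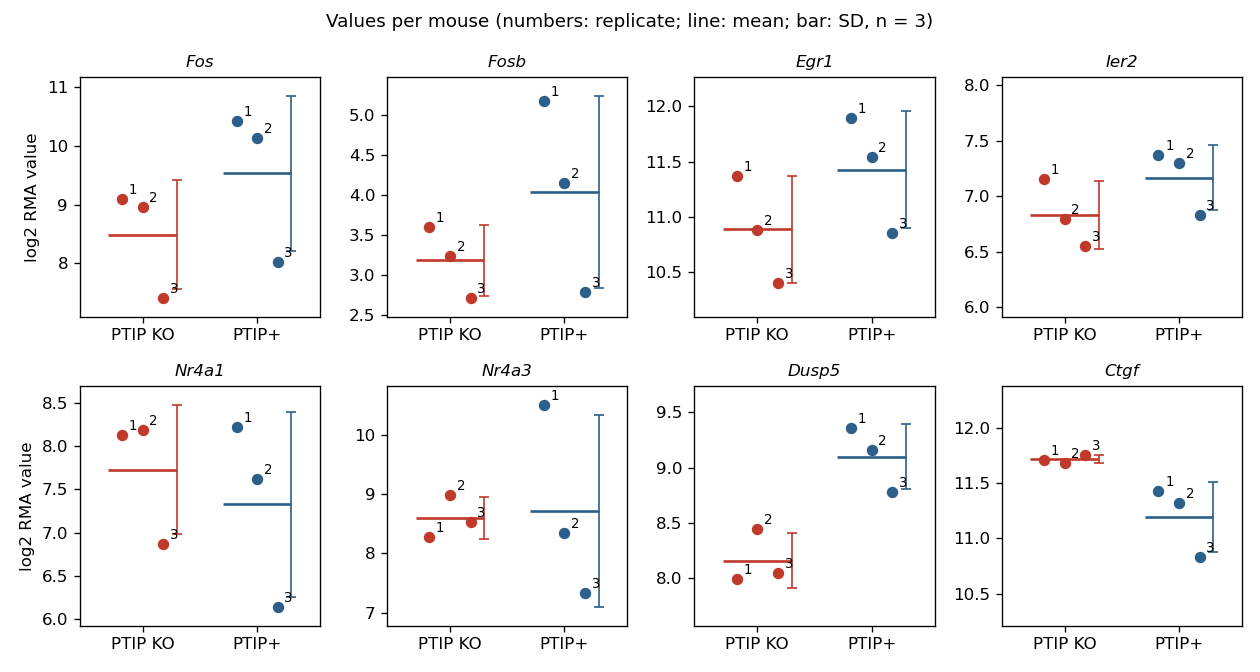
Log2 RMA values of 8 early response genes in each PTIP KO mouse (left) and each PTIP+ mouse (right), with replicate numbers, the group mean (line) and SD (bar, n = 3). Mouse 3 is the lowest of its group for Fos, Fosb, Egr1, Ier2 and Nr4a1 in both groups, while the groups separate for Dusp5 and Ctgf. Each panel has its own axis, which does not start at 0.

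Egr factors, zinc-finger activators downstream of serum response factor, were lower in PTIP KO on average in all 3 genes, and none passed. Egr1 read 11.37, 10.89 and 10.41 in PTIP KO mice and 11.89, 11.54 and 10.85 in PTIP+ mice, a difference of -0.54 (SE 0.32, limma adjusted p = 0.704). It was -0.31 without PTIP+ mouse 1, -0.30 without PTIP KO mouse 3 and -0.83 without PTIP+ mouse 3. The groups overlapped, since PTIP+ mouse 3 lay below PTIP KO mice 1 and 2. Egr2 differed by -0.39 (SE 0.19) and by -0.45 on a second one (limma adjusted p = 0.520). On the second one the PTIP KO mice read 5.63, 5.16 and 5.57, against 6.15, 5.90 and 5.65 in the PTIP+ mice. All PTIP KO values were below all PTIP+ values there, with PTIP KO mouse 1 and PTIP+ mouse 3 nearly equal. Egr3 differed by -0.22 and by -0.38 on its second probe set.

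Nr4a genes encode orphan nuclear receptors that need no ligand and are controlled largely at the level of their transcription. Of the 3, Nr4a1 and Nr4a2 had positive differences and Nr4a3 a negative one, and none passed. Nr4a1 read 8.13, 8.18 and 6.87 in PTIP KO mice and 8.22, 7.62 and 6.15 in PTIP+ mice, a difference of 0.40 (SE 0.56, limma adjusted p = 0.904). PTIP KO mouse 3 and PTIP+ mouse 3 were the 2 lowest, as they were for Fos. Nr4a3 read 8.27, 8.97 and 8.54 in PTIP KO mice and 10.49, 8.33 and 7.33 in PTIP+ mice. The 3 PTIP+ mice spanned 3.16, a factor of 8.95, and enclosed all 3 PTIP KO mice, with a difference of -0.13 (SE 0.71). Without PTIP+ mouse 1 that difference was 0.76, and without PTIP+ mouse 3 it was -0.82, so its sign rested on single mice. Nr4a2 had 6 probe sets that disagreed in sign, from -0.17 to 0.62. The one with the highest difference read 6.19, 6.69 and 5.81 in PTIP KO mice and 5.88, 5.64 and 5.32 in PTIP+ mice (limma adjusted p = 0.505), and these groups overlapped.

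The Krüppel-like factors, zinc-finger proteins of vessel wall, growth and TGF-beta responses, differed little between the groups. Klf2, Klf4, Klf6 and Klf10 differed by between -0.20 and 0.10. Their ranges over the 6 mice lay between 0.39 and 0.66, against a median range of 0.48 over all genes. Myc, the growth regulator, differed by -0.45 (SE 0.34, limma adjusted p = 0.783), and PTIP+ mouse 2 alone stood high at 6.11, with the other 5 mice between 4.57 and 5.04. Without PTIP+ mouse 2 the Myc difference was -0.045. Of the Ier genes, short early response proteins, Ier2 read 7.16, 6.79 and 6.55 in PTIP KO mice and 7.37, 7.30 and 6.83 in PTIP+ mice, a difference of -0.34 (SE 0.20, limma adjusted p = 0.715). Mouse 3 was once more the lowest in each group. Ier3, linked to cell survival, differed by 0.10, and Ier5 by -0.14 with PTIP+ mouse 1 the highest at 10.72.

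The MAP kinase phosphatases, which remove phosphate from ERK, JNK and p38, held the smallest p of the representative probe sets. Dusp5, a nuclear phosphatase of ERK, read 7.99, 8.44 and 8.04 in PTIP KO mice and 9.36, 9.16 and 8.78 in PTIP+ mice. The groups did not overlap, and the PTIP KO mean was 1.92-fold lower. The difference was -0.94 (SE 0.19, limma adjusted p = 0.173), and it stayed between -1.10 and -0.81 whichever mouse was left out. Among the other settings tried, the lowest limma adjusted p of Dusp5 was 0.0909, with a variance trend in the fit. Dusp4, another nuclear phosphatase, pointed the other way at 0.37 (SE 0.17, limma adjusted p = 0.597), with overlapping groups. Dusp1, which acts mainly on p38 and JNK, read 11.94, 11.97 and 11.87 in PTIP KO mice and 12.08, 12.12 and 11.83 in PTIP+ mice, a difference of -0.09 (SE 0.12, limma adjusted p = 0.899). Dusp6, the cytoplasmic ERK phosphatase, differed by -0.19 and Dusp2 by -0.14.

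Zfp36 encodes tristetraprolin, which binds AU-rich elements and speeds the decay of early transcripts. It differed by -0.06 (SE 0.12), and its relative Zfp36l1 by -0.19 (SE 0.11, limma adjusted p = 0.682). Zfp36l1 read 10.60, 10.66 and 10.55 in PTIP KO mice and 10.90, 10.72 and 10.76 in PTIP+ mice. These groups did not overlap, but the gap between PTIP KO mouse 2 and PTIP+ mouse 2 was smaller than the range within either group.

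Ctgf and Cyr61 encode secreted matricellular proteins, known as targets of YAP and serum response factor. Ctgf read 11.71, 11.68 and 11.75 in PTIP KO mice and 11.43, 11.32 and 10.83 in PTIP+ mice, so all PTIP KO values were above all PTIP+ values. The difference was 0.52 (SE 0.17, limma adjusted p = 0.404), a factor of 1.43, and 0.34 without PTIP+ mouse 3. For Cyr61 the 4 probe sets disagreed. The 2 brightest differed by 0.10 and 0.38, whereas the 2 dimmest differed by -0.89 (limma adjusted p = 0.166) and -0.49 (limma adjusted p = 0.376). On the one at -0.89 Cyr61 read 5.38, 4.96 and 5.08 in PTIP KO mice and 6.27, 5.74 and 6.08 in PTIP+ mice, without overlap, at a low level. The sources used here give no probe positions, so which part of the transcript each one reads was not tested.

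The remaining effectors differed little. Gadd45b and Gadd45g, stress proteins that act on p38 signalling and the cell cycle, differed by 0.04 and 0.25. The Gadd45g difference was 0.026 without PTIP+ mouse 1, 0.063 without PTIP KO mouse 3, 0.42 without PTIP KO mouse 2 and 0.43 without PTIP+ mouse 3. Rhob, a small GTPase, differed by -0.09, and Sgk1, a kinase induced by serum and glucocorticoids, by -0.18. Arc, a cytoskeletal protein best known from neurons, differed by 0.39 (SE 0.20, limma adjusted p = 0.644), with PTIP KO mouse 1 at 6.47 and the other 5 mice between 5.49 and 5.86. Without PTIP KO mouse 1 the Arc difference was 0.17.

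Spread between mice of the same group was wide for a few of the genes. The within-group SD of Nr4a3 was 1.17, that of Fos 1.14, of Nr4a1 0.92 and of Fosb 0.91, against a median of 0.17 over all genes. In 6 members, Fos, Fosb, Egr1, Nr4a1, Nr4a3 and Myc, that SD was among the highest 5% of all genes. A range of at least 1 over the 6 mice was seen for 8 members, against 9.07% of all genes. The median within-group SD of the 36 was 0.23. It was above the median of all genes in 26 members, and among the highest 20% of genes in 15. At the steady end, Fosl1 had 0.06, Zfp36l1 0.08 and Jun 0.10.

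**Figure D3:**
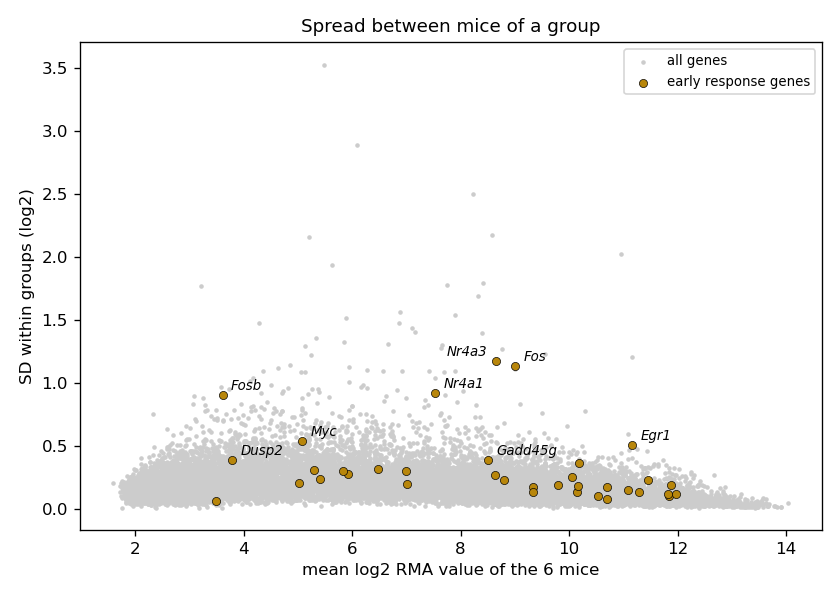
Within-group SD of log2 values (y axis, square root of the mean of the 2 group variances, n = 3 each) against the mean over the 6 mice (x axis) for 18193 genes in grey and the 36 early response genes in gold. Nr4a3, Fos, Nr4a1 and Fosb lie between 0.91 and 1.17, far above the median of 0.17, and the other members lie at 0.54 or below.

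PTIP KO mouse 3 was the lowest of the PTIP KO mice and PTIP+ mouse 3 the lowest of the PTIP+ mice in 14 of the 36, against 9.09% of all genes. These 14 were Fos, Fosb, Fosl2, Junb, Maff, Egr1, Egr3, Nr4a1, Nr4a2, Klf10, Ier2, Dusp1, Dusp6 and Arc. The same pair were the 2 lowest of all 6 mice in 9 members, against 4.51% of all genes. This count was made after the values were seen. PTIP+ mouse 1 had the highest value of the 6 in 13 members (26.2% of all genes) and PTIP+ mouse 2 in 11 (12.1% of all genes), and PTIP+ mouse 3 in 0 (9.12% of all genes). PTIP+ mouse 3 had the lowest value in 13 members, against 16.6% of all genes. The median deviation of the members from their 6-mouse means was -0.03, 0.0007 and -0.10 in PTIP KO mice 1 to 3 and 0.12, 0.10 and -0.16 in PTIP+ mice 1 to 3. Over all genes these medians lay between -0.03 and 0.02. The 3 PTIP+ mice thus enclosed the 3 PTIP KO mice.

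**Figure D4:**
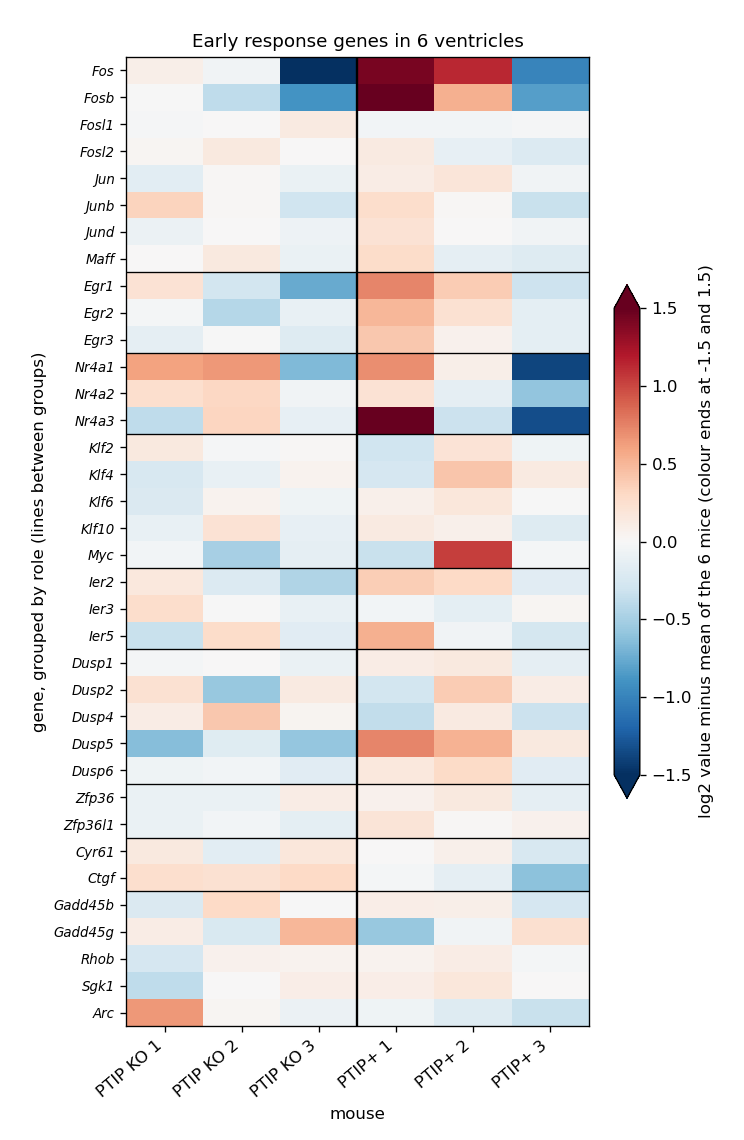
Log2 value of each early response gene in each mouse minus its mean over the 6 mice, with PTIP KO mice left of the line and PTIP+ mice right of it, genes by role. Fos, Fosb, Egr1 and Nr4a1 are blue in mouse 3 of both groups and red in PTIP+ mouse 1, while Jund, Dusp1 and Zfp36 stay pale throughout.

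Fos was used as a yardstick for joint movement over the 6 mice, with all 35 other members compared. Pearson's r with Fos was at least 0.8 in 6 of 35, Fosb, Egr1, Egr3, Ier2, Dusp1 and Dusp6, against 1.96% of 18192 other genes. Egr1 had r = 0.95 (exact permutation p = 0.00139, the smallest that 6 mice allow) and Spearman's rho = 1 (exact permutation p = 0.00278). Adjusted over all 18192 genes, both p-values were above 0.99 (0.997 for r and 0.999 for rho), so neither relation passed. With 6 mice this adjustment could pass a gene only if very many genes shared the smallest p. It therefore cannot decide any of the relations with Fos given here. Without PTIP KO mouse 3 and PTIP+ mouse 1, the mice farthest from the median of Fos, r with Egr1 was 0.85 over 4 mice. For Ier2 r was 0.94 and rho 0.94 (exact permutation p = 0.00556 and 0.0167, adjusted 0.997 and 0.999), and 0.81 without those mice. After subtracting group means, r with Fos was 0.94 for Egr1, 0.92 for Ier2, 0.91 for Fosb and 0.99 for Nr4a1. Nr4a1 had only r = 0.71 before that step (rho = 0.71, exact permutation p = 0.131 and 0.136, adjusted 0.997 and 0.999), since its group difference had the opposite sign to that of Fos. Gadd45g ran against Fos with r = -0.86 (rho = -0.83, exact permutation p = 0.0306 and 0.0583, adjusted 0.997 and 0.999), and -0.53 without those mice. Fosl1, a dim relative of Fos, also ran against it with r = -0.78 (rho = -0.93, exact permutation p = 0.00833 and 0.0222, adjusted 0.997 and 0.999), and -0.56 without those mice. The mean r over all pairs of members was 0.18, or 0.24 after subtracting group means, against 0.01 over all pairs of genes in both cases. Genes of one array share its labelling and normalization.

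PTIP+ mouse 1, highest for Fos, Fosb, Egr1, Nr4a1 and Nr4a3, was also the mouse with the largest 3' minus 5' differences given above. PTIP KO mouse 3 and PTIP+ mouse 3, low for the first 4 of these genes, had actin differences of 1.64 and 1.38, inside the range of the other mice. The part of RNA quality in the members' values was not tested. The 9 macrophage markers all had negative differences, 3 of them at an unadjusted limma p under 0.05, none past the adjusted threshold. Their mean log2 level per mouse was between 8.17 and 8.70 in PTIP KO mice and between 8.69 and 8.88 in PTIP+ mice. The log2 of their summed linear levels ran from 12.3 to 12.8 in PTIP KO mice and from 12.8 to 13.0 in PTIP+ mice. The 6 mesothelial markers had mean levels from 4.93 to 7.33 in PTIP KO mice and from 6.02 to 7.14 in PTIP+ mice, and were highest in PTIP KO mouse 3. Endothelial markers averaged between 10.06 and 10.18 in PTIP KO mice and between 9.90 and 10.22 in PTIP+ mice, and fibroblast markers between 10.84 and 10.94 in PTIP KO mice and between 10.82 and 10.95 in PTIP+ mice. In the smooth muscle, neutrophil and adipocyte lists, of 8, 7 and 4 measured markers, none reached that p. Of 4 erythroid markers 1 was lower and of 3 Schwann cell markers 1 was higher at it. No marker read 0, as RMA gives no zeros, and the part of these cells in the members' values was not tested.

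Other genes of early response and of the pathways upstream came from 8 lists with 134 measured genes, none of which passed the adjusted threshold with limma. Lower in PTIP KO at an unadjusted limma p under 0.05 were 13 and higher were 14, together 20.1% of them, against 9.27% of all genes. The lists were chosen with earlier results of these data known, so the larger share is a description only. Among 43 further early response genes 6 were lower and 6 higher at that p, with a median difference of -0.04. Phlda1, a growth factor response gene, read 8.73, 8.64 and 8.83 in PTIP KO mice and 10.30, 10.16 and 9.67 in PTIP+ mice, a difference of -1.31 (SE 0.17, limma adjusted p = 0.0515). Hbegf, a ligand of the EGF receptor, read 7.86, 7.89 and 7.81 in PTIP KO mice and 8.60, 8.60 and 8.51 in PTIP+ mice, a difference of -0.72 (SE 0.10, limma adjusted p = 0.0602). The groups did not overlap for either gene. Ptgs2, the inducible cyclooxygenase, differed by -0.62 (limma adjusted p = 0.175).

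Upstream, none of the 12 measured genes of the SRF and MRTF list was lower at an unadjusted limma p under 0.05 and 1 was higher, Srf itself at 0.38 (SE 0.12, limma adjusted p = 0.407). Mkl1, an actin-sensing cofactor of SRF, differed by 0.30 and Fhl2, a LIM protein, by -0.17. Of 15 MAP kinase genes 3 were higher and 1 lower at that p. Mapkapk2 and Mapkapk3, kinases activated by p38, differed in opposite directions, by 0.64 (SE 0.12, limma adjusted p = 0.160) and -0.59 (SE 0.14, limma adjusted p = 0.223), and Map2k3, which activates p38, by 0.38. None of 12 CREB pathway genes reached that p, and the 3 with the smallest p, Crtc1, Crtc2 and Prkar1a, differed by 0.33, 0.27 and -0.20. In the YAP and TEAD list 1 of 12 did, Ankrd1, a cardiac stretch gene and YAP target, at -0.68 (SE 0.16, limma adjusted p = 0.226), so that it and Ctgf differed in opposite directions. Tead4 and Amotl2 of that list differed by -0.29 and 0.20.

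Stress programmes that are often read beside early response genes were also examined. Of 14 heat shock genes 1 was higher at an unadjusted limma p under 0.05, the small chaperone Hspb1 at 0.50 (SE 0.10, limma adjusted p = 0.181). Hspa5 and Dnaja1 differed by -0.19 and -0.17. Among 16 hypoxia response genes 4 were lower and 1 higher, with Egln3, an oxygen sensor, at -0.49 (limma adjusted p = 0.179), the mitophagy gene Bnip3 at 0.39 (limma adjusted p = 0.302) and Hif1a at -0.44 (limma adjusted p = 0.342). Of 10 glucocorticoid response genes 1 was lower, Fkbp5, a cochaperone of the receptor, at -0.64 (limma adjusted p = 0.276), and 2 were higher, Tsc22d3 at 0.38 and Per1 at 0.36. The median differences of the heat shock, hypoxia and glucocorticoid lists were -0.02, -0.02 and 0.02.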

How the data were processed

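RNA of the left ventricular apex of 6 mice was labelled with the NuGen Ovation Biotin system and hybridised to 1 array per mouse, per the labels' protocols. The authors deposited log2 values made with RMA (background correction, normalization between arrays and probe set summary), per the submitters' processing notes. Those notes state no version of it. The base of the logarithm was inferred from the values, which run from 1.36 to 14.3. Such normalization hides changes of total RNA, and small signals are compressed. Of 45101 probe sets, 64 controls were left out. The platform annotation gave 1 gene for 34945 of the 45037 tested, several for 932 and none for 9160. Entrez identifiers linked these to current symbols of RefSeq on GRCm38.p6 (34741 matched), and Cyr61 and Ctgf were found as Ccn1 and Ccn2.

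The comparison, PTIP KO minus PTIP+ and two-sided, used lmFit and eBayes of limma 3.58.1 (R 4.3.3), with p-values adjusted by Benjamini-Hochberg over all 45037 probe sets and a threshold of 0.05. The median SE was 0.147. The fit was run on simulated data as a check of the code. Probe sets varied independently there, so it says nothing about genes that move together. The number of arrays, 3 per group, limits the precision. Correlations used exact permutation of the 6 mice, two-sided. Values per mouse were given for 6 well-known members, for members with an unadjusted p under 0.05 and for the 4 with the widest range, and up to 3 genes of each pathway list were named. Egr2, Nr4a2, Cyr61, Zfp36l1 and single mice of Myc, Ier5 and Arc were given beyond this rule after their values were seen, as were members of the cell type lists. The members and lists were chosen with earlier results of these data known. The alternatives were a variance trend, array weights, a filter on dim probe sets, renewed quantile normalization and median centring. Others were a replicate block, which treats same-numbered mice as matched, averaging a gene's probe sets, and leaving out each mouse. The last used only the 4 arrays whose description numbers share leading digits, those of PTIP KO mouse 3 and all PTIP+ mice. What these digits mean was not tested. If they mark a batch, it cannot be told apart from genotype in PTIP KO mice 1 and 2. All 6 mice are labelled as separate animals.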

Additional observations from a re-analysis of the deposited data

How the results depend on the processing

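No member passed the adjusted threshold under any of the 14 alternatives, and the median difference over members was negative under each, from -0.17 to -0.03 with 1 mouse left out and at its nearest to 0, -0.02, with array weights. The count of members at an unadjusted limma p under 0.05 was 2 to 7 with 1 mouse left out (7.4% to 10.2% of all genes). It was 1 with PTIP KO mouse 3 alone against all PTIP+ mice (4.76% of all genes; the lone mouse is taken to vary like the PTIP+ mice) and 8 with the replicate block (7.38% of all genes). Over all probe sets, deviations of same-numbered mice from their group means gave r of -0.15, -0.08 and -0.01. Differently numbered mice across the groups gave r from -0.18 to 0.20. These values cannot show whether a few transcripts moved together in same-numbered mice, which was not tested. Fos, Fosb, Egr1 and Ier2, low in mouse 3 of both groups, were among the 8 members under the block. The lowest adjusted p of a member under the block was 0.266, for Fos. Members whose groups did not overlap numbered 5 to 15 with 1 mouse left out, where fewer mice raised the share of all genes to between 24.2% and 29.9%. The 15 were without PTIP+ mouse 3 (24.2% of all genes, 41.7% of members). The lone mouse also gave 15 (48.5% of all genes). Averaging the probe sets of a gene gave 6 (16.4% of all genes).

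Of 283 member differences under the alternatives other than leaving out a mouse, 17 changed sign, none of them past the threshold in any setting. With array weights Nr4a3 was 0.49, Klf10 0.0279, Ier5 0.00837 and Zfp36 0.00483, and with centring Klf10 was 0.0313. With the mean of all probe sets Jund was 0.0738, Nr4a3 0.0730, Cyr61 -0.22 and Gadd45b -0.0309. With PTIP KO mouse 3 alone Junb was -0.29, Maff -0.0883, Nr4a1 -0.46, Ier3 -0.0578, Dusp2 0.0625, Zfp36 0.0811, Rhob 0.00567 and Sgk1 0.0128. With 1 mouse left out, 21 of 216 changed sign: the ranges were -0.13 to 0.19 for Junb, -0.0576 to 0.18 for Maff, -0.19 to 0.84 for Nr4a1, -0.82 to 0.76 for Nr4a3, -0.0225 to 0.23 for Klf2 and -0.12 to 0.0541 for Klf10. They were -0.00488 to 0.18 for Ier3, -0.32 to 0.0854 for Ier5, -0.32 to 0.11 for Dusp2, -0.14 to 0.00523 for Zfp36, -0.0929 to 0.16 for Gadd45b and -0.15 to 0.0113 for Rhob. Beyond the fewer mice, the cause of these changes was not tested. Without PTIP+ mouse 3 the Fos difference was -1.80, and without PTIP KO mouse 3 it was -0.51. The filter left out 5 dim members.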
